A study of Mus musculus with 12 samples.

Results

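The keratin family was followed through the bulk pylorus of wild-type and tumour-prone mice at 2 ages. Members were all rows of the deposited count table whose symbol is Krt followed by a number and at most 1 letter, which gave 52 of 23420 rows. A member was taken as expressed when at least 3 of the 12 libraries held 10 or more counts. By that rule 21 members were expressed and 31 were not. The tissue was the pylorus, the outlet of the stomach into the duodenum, and whole tissue was homogenised for messenger RNA sequencing with a stranded kit. The 4 groups of 3 libraries were wild-type C57BL/6 at 60 days (D60), wild-type C57BL/6 at 80 days (D80), CEA424-SV40 T Ag at D60 and CEA424-SV40 T Ag at D80. All 4 groups shared the C57BL/6 strain and had no label of any treatment. In the CEA424-SV40 T Ag line, called transgenic from here on, a stretch of the carcinoembryonic antigen promoter drives the SV40 T antigen, a viral protein that binds p53 and the retinoblastoma proteins. The transgene itself was not analysed here. The labels did not say whether the 3 libraries of a group came from separate animals, so the p-values measure the spread between libraries.

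Keratins are the intermediate filament proteins of epithelial cells. A filament is built from pairs of a type I and a type II chain, and the genes of the 2 types lie in 2 clusters, with the type I gene Krt18 beside Krt8 in the type II cluster. One-layered (simple) epithelia such as the gastric lining use Krt8 with Krt18, Krt19 and Krt20, stratified epithelia such as epidermis and oesophagus use Krt5 with Krt14, Krt1 with Krt10 and Krt4 with Krt13, and hair and nail use a further set. Krt8 and Krt18 remain expressed in many carcinomas, endocrine ones included, which makes keratin antibodies standard tools of tumour pathology.

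Total counts ran from 20121600 to 27633715 per library, and 3 counts corresponded to between 0.0901 and 0.185 CPM (counts scaled to a common library size, here with TMM factors for composition). Of the 21 expressed members, 20 passed the filter on low counts and were tested among 15369 genes. The exception, Krt85, held 0 to 11 counts per library. In whole tissue, fewer cells of a type and less RNA per cell cannot be told apart. Several libraries stood apart in other tissue markers. Wild-type D80 replicate 1 had the lowest summed level of 8 surface mucous genes among wild-type libraries (61200 CPM, against 119500 to 212600 in the other 5). Wild-type D80 replicate 3 was the highest of all 12 in duodenal (11040 CPM) and mesothelial (89.66 CPM) markers, and transgenic D80 replicate 1 was the highest in pancreatic acinar markers (4306 CPM). Xist and Y-linked counts gave male-type tissue in all 3 wild-type D60 libraries and in transgenic D80 replicate 1. The other 8 libraries were female-type. At D60 genotype and sex therefore cannot be told apart, and in wild-type libraries neither can age and sex.

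The simple-epithelial keratins made up nearly all keratin RNA in every group. Keratin rows together took 1.28% to 1.81% of all counts in wild-type D60 libraries and 1.32% to 1.59% in transgenic D60 libraries. The share was 0.948% to 1.43% in wild-type D80 and 0.534% to 0.791% in transgenic D80 libraries, the lowest 3 of the 12. Per kilobase of transcript, the wild-type D60 level was highest for Krt19, a type I chain that lacks the usual tail domain, at 4145 ± 1334 CPM per kb (SD, n = 3). Next came its type II partner Krt8 at 3451 ± 977 CPM per kb, which overlapped Krt19 between libraries. Krt18 stood at 809.2 ± 136, Krt20 at 581.1 ± 126, Krt7 at 255.2 ± 77.1 and Krt23 at 106.3 ± 23.4 CPM per kb. In that group only Krt18 and Krt20 overlapped among these lower neighbours (694 to 958.9 against 475.5 to 720.8 CPM per kb). All other members with a known length averaged at most 11.95 CPM per kb there, the value of Krt79.

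Type II and type I chains stayed in a narrow ratio. Summed over expressed members per kilobase, the ratio of type II to type I was 0.624 to 0.664 in the 6 wild-type libraries and 0.631 to 0.661 in the transgenic D60 libraries. In transgenic D80 libraries it was 0.569 to 0.598, below all others. The make-up of the pool differed there as well, since Krt18 gave 13.8%, 14.6% and 16.6% of the keratin CPM per kb in the transgenic D80 libraries. Krt18 gave 6.88% to 9.87% in the others, except for 14.5% in wild-type D80 replicate 1. Krt19 gave 34.4% to 37.2% in transgenic D80 libraries and 39.8% to 45.6% elsewhere. These sums are a description with no test.

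**Figure D1:**
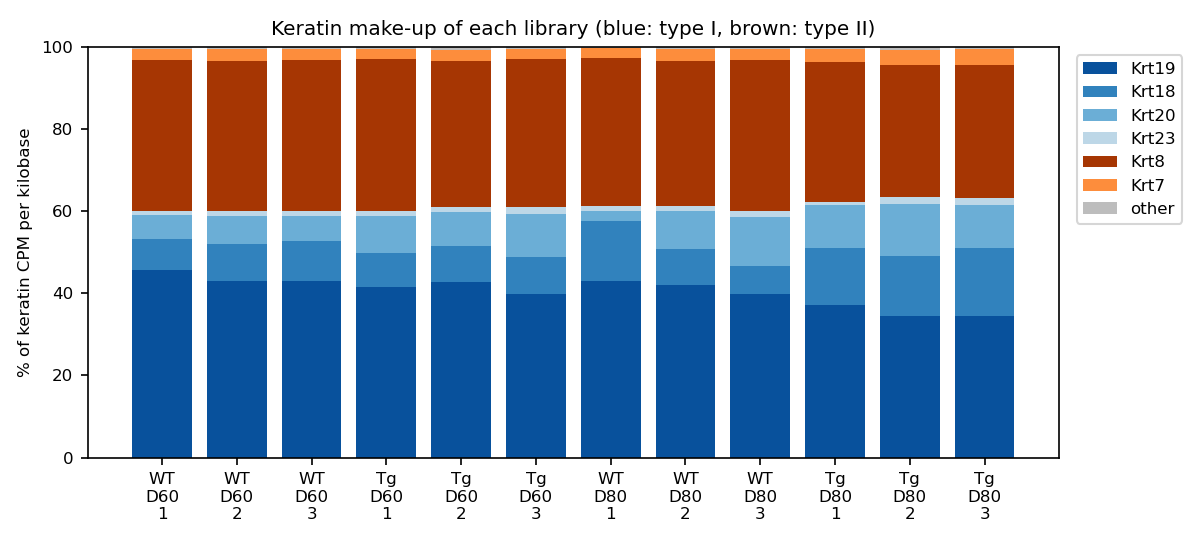
Share of each library's summed keratin level (% of CPM per kilobase of transcript, vertical axis) held by the 4 main type I chains (blue), the 2 main type II chains (brown and orange) and all other expressed members (grey). The Krt18 band is widest in the 3 transgenic D80 libraries (13.8% to 16.6%) and in wild-type D80 replicate 1 (14.5%).

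At D80 the simple keratins Krt7, Krt8, Krt18, Krt19 and Krt23 were lower in transgenic pylorus, and Krt20 was not called. Of 20 members tested, 8 fell (Krt7, Krt8, Krt18, Krt19, Krt23, Krt78, Krt79 and Krt80) and 4 rose (Krt10, Krt14, Krt16 and Krt222) in edgeR's quasi-likelihood test with Benjamini-Hochberg adjustment over all genes. Over all 15369 genes, 22% were called lower and 19.4% higher, so 40% of the members were lower against a background of 22%, and 20% were higher against 19.4%. Krt14 and Krt16 reached 10 counts in transgenic libraries only, and Krt222 met the rule for expression only when these were counted. Their rises at either age are therefore those of members that met the rule through the group where they were high. The median log2 change of the 20 was -0.67, beside -0.07 over all genes tested. With no composition factor 5104 genes were higher and 1001 lower, and with upper-quartile factors 3571 and 2093, where TMM scaling gave 2974 and 3380. The 4 rises were 2 without wild-type D80 replicate 1 or 2, 1 without transgenic D80 replicate 2, and 2 in a fit on the D80 groups alone or with a filter of at least 1 CPM in 3 libraries. The 8 falls ranged from 6 to 9 over all settings.

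Krt8, the type II chain of simple epithelia (GRCm38 chr15:101996698-102004482, minus strand), measured 3704, 5909 and 6343 CPM in wild-type D80 libraries and 2433, 1777 and 1436 CPM in transgenic D80 libraries. All transgenic values lay below all wild-type values, and the log2 change was -1.50 (SE 0.31, adjusted p = 0.0028). Krt19 (chr11:100140810-100148665, minus strand) measured 3587, 5643 and 5527 CPM in wild-type and 2136, 1523 and 1229 CPM in transgenic D80 libraries. Its groups were apart as well, with a log2 change of -1.59 (SE 0.31, adjusted p = 0.002). Wild-type D80 replicate 1, the library low in surface mucous genes, was the lowest wild-type library for both.

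Krt18, the type I partner of Krt8 (chr15:102028180-102032027, plus strand), was lower as well. It measured 1099, 1069 and 870.2 CPM in wild-type D80 libraries and 720.3, 589.1 and 540.5 CPM in transgenic D80 libraries, with no overlap. The log2 change was -0.72 (SE 0.18, adjusted p = 0.0085). Without transgenic D80 replicate 3 the adjusted p was 0.054, and with no composition factor the change was -0.31 with an adjusted p of 0.14. Krt7, a type II chain typical of ducts (chr15:101411043-101430313, plus strand), measured 509.5, 952.1 and 971.9 CPM in wild-type and 448.1, 428.7 and 356.9 CPM in transgenic libraries. It fell by 0.98 on the log2 scale (SE 0.26, adjusted p = 0.012), and adjusted p was 0.062 without transgenic D80 replicate 3, 0.058 with both libraries richest in pancreatic markers within their D80 group left out, and 0.052 with no composition factor.

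Krt23, a type I chain of glandular epithelia (chr11:99477974-99493137, minus strand), measured 103.8, 176 and 173.6 CPM in wild-type and 52.03, 67.96 and 56.12 CPM in transgenic D80 libraries. The groups did not overlap and the log2 change was -1.36 (SE 0.22, adjusted p = 0.00062). Krt20, the type I chain of mature gastric pit and intestinal villus cells, varied most between wild-type D80 libraries, at 256, 1518 and 2037 CPM. Its transgenic values of 730.3, 695.5 and 460.6 CPM lay between the low wild-type replicate 1 and the other pair. The log2 change was -1.01 (SE 0.53, adjusted p = 0.15), and without wild-type D80 replicate 1 it was -1.50 (adjusted p = 0.00093).

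**Figure D2:**
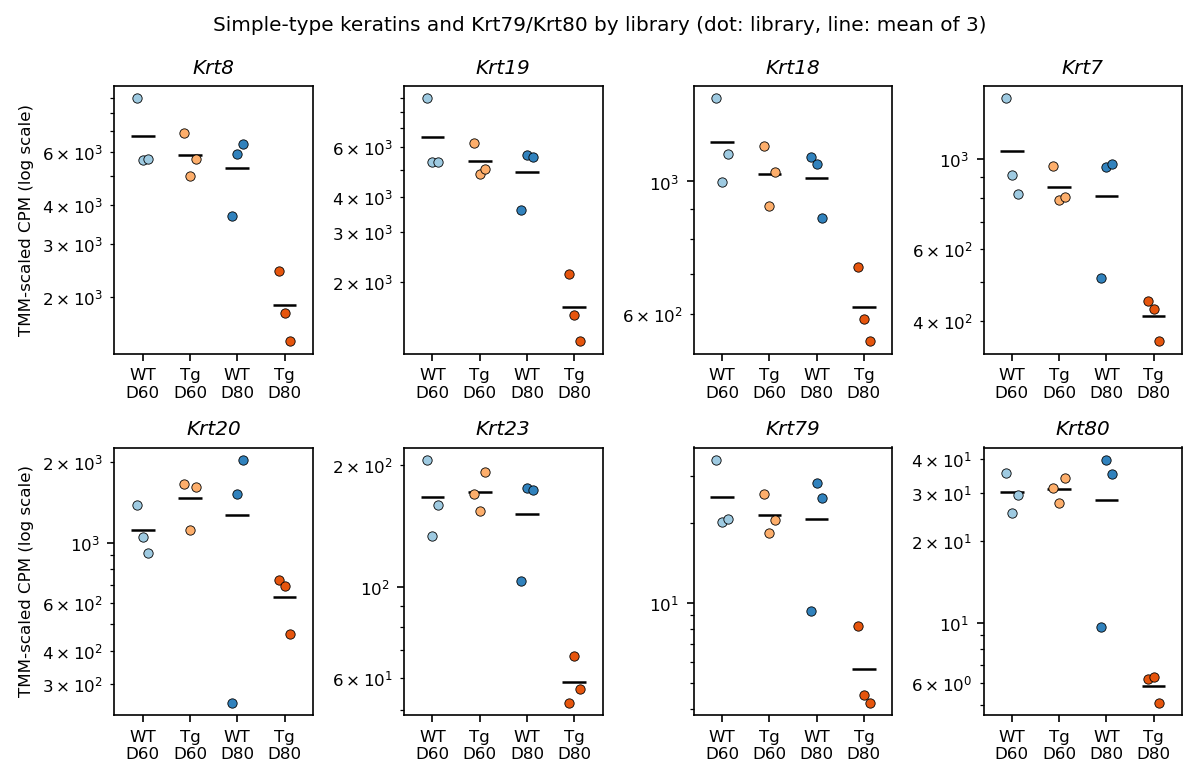
TMM-scaled CPM (log axis) of 8 keratins, a dot per library and a line at the mean of each group of 3. In Krt8, Krt19, Krt18, Krt7 and Krt23 the 3 transgenic D80 libraries lie below the 9 others, and in Krt20 wild-type D80 replicate 1 lies lowest of all.

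Promoter sequence was at hand in RefSeq (GRCm38.p6, 250 bases before to 50 after the start) for 11 of the 21 expressed members and 6 of the 8 that fell. Those of Krt78 and Krt79, which fell as well, are not shown. The promoters shown are those of the 4 simple keratins among the 6. They are Krt8 (chr15:102004293-102004592, minus strand), Krt18 (chr15:102027966-102028265, plus strand), Krt7 (chr15:101412153-101412452, plus strand) and Krt23 (chr11:99493071-99493370, minus strand). Capitals mark every match on either strand to 1 of 6 strings, which are TATAAA of the TATA box, its variant ATAAAA that can overlap it, CCAAT of the CCAAT box, GGGCGG of the GC box, TGANTCA of the AP-1 site and GATAAG of the GATA site.
Krt8: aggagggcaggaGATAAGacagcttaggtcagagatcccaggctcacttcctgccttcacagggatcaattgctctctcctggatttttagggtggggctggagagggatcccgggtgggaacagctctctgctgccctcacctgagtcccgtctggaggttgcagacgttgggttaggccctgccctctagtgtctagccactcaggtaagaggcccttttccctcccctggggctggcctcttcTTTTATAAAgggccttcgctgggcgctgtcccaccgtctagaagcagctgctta
Krt18: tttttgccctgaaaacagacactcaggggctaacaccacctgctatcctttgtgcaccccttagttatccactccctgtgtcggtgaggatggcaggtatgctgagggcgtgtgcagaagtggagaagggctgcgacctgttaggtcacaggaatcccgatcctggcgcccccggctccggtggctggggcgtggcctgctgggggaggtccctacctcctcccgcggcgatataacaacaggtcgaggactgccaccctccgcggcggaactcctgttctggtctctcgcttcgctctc
Krt7: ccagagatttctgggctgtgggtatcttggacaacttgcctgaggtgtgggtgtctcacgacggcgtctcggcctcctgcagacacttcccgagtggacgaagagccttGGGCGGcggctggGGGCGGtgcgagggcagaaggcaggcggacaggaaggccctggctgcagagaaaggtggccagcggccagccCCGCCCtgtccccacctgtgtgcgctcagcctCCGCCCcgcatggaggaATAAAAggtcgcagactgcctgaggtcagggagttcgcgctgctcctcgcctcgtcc
Krt23: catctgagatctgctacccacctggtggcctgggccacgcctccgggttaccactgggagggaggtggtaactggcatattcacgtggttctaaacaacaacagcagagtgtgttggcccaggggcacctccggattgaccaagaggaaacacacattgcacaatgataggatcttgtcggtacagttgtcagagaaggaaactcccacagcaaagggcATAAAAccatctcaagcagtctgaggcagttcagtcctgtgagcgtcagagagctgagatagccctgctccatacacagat

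Krt8 held 2 overlapping matches to TATAAA, 1 per strand, which also overlap its match to ATAAAA, and 1 match to GATAAG. Krt7 held 4 matches to GGGCGG and 1 to ATAAAA. Krt23 held 1 match to ATAAAA, and none of the 6 letter strings occurs in the Krt18 window, although that gene fell beside its neighbour Krt8. Of all 32851 RefSeq promoters of that length, 13.6% held TATAAA, 18.5% held ATAAAA, 37.4% held CCAAT, 35.7% held GGGCGG, 7.81% held TGANTCA and 7.44% held GATAAG. The ATAAAA string was added after these sequences had been looked at. Such matches were not limited to members that fell. Among promoters not shown, Krt20, which was not called at D80, held 1 match to TATAAA and 1 to ATAAAA. Krt12 held 1 to TATAAA, and Krt13 held 1 to ATAAAA and 1 to TGANTCA, and neither was called. Of the members that rose, Krt10 held 1 to TATAAA and 1 to CCAAT, and Krt14 held 1 to GATAAG. Krt78 and Krt79, which fell, held 1 match to ATAAAA each. A match is a run of letters, and whether any factor binds there was not tested.

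The 3 low-level type II chains Krt78, Krt79 and Krt80, known from skin and its appendages, had the largest log2 falls of the 8 members called lower at D80. Krt80 (chr15:101347444-101370162, minus strand) measured 9.631, 39.84 and 35.28 CPM in wild-type and 6.218, 6.305 and 5.082 CPM in transgenic D80 libraries. It fell by 2.27 on the log2 scale (SE 0.40, adjusted p = 0.0011) with no overlap. Krt78 (chr15:101946001-101954287, minus strand) measured 7.558, 61.28 and 45.07 CPM in wild-type and 7.48, 3.946 and 2.727 CPM in transgenic libraries, so that wild-type D80 replicate 1 all but met the highest transgenic library. The log2 change was -3.00 (SE 0.60, adjusted p = 0.0025). Krt79 (chr15:101929332-101940324, minus strand), found in the hair canal, measured 9.346, 28.1 and 24.7 CPM in wild-type and 8.171, 4.499 and 4.214 CPM in transgenic libraries. Again the groups did not overlap, with a log2 change of -1.88 (SE 0.40, adjusted p = 0.0034). Wild-type D80 replicate 1 was the lowest wild-type library in all 3, as it was in surface mucous genes.

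Krt222, a keratin-like gene at one end of the type I cluster (chr11:99232761-99244085, minus strand), moved in the other direction and was the single member called at both ages. Its counts were 3, 6 and 6 in wild-type D60 libraries and 24, 36 and 29 in transgenic D60 libraries. They were 4, 13 and 14 in wild-type D80 and 152, 170 and 180 in transgenic D80 libraries. As CPM the group means were 0.2511 ± 0.0571, 1.237 ± 0.262, 0.4476 ± 0.247 and 5.471 ± 0.856 (SD, n = 3) in the same order. Both transgenic groups lay above both wild-type groups without overlap. The log2 change was 3.61 at D80 (SE 0.40, adjusted p = 4.7e-05). Krt222 rose beside a list of 13 neuroendocrine markers, Chga and Syp among them. Those 13 genes were all higher at both ages, their summed level ran from 28500 to 42110 CPM in transgenic D80 against 573.4 to 607.6 CPM in wild-type D80 libraries, and their part in the Krt222 result was not tested.

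The stress- and basal-type chains Krt14 and Krt16 were near the detection floor, and were called higher in transgenic tissue at D80 but not at D60. A difference between the ages was not established for either. The interaction in edgeR's test was 0.95 for Krt14 (adjusted p = 0.75) and -2.47 for Krt16 (adjusted p = 0.52). For Krt16 the log2 change was 6.04 at D60 and 3.57 at D80, and for Krt14 it was 1.85 and 2.81. Krt16, which epidermis makes after wounding, had 0 counts in all 3 wild-type D60 libraries and 14, 6 and 4 in transgenic D60 libraries. At D80 it had 0, 0 and 3 counts in wild-type and 13, 24 and 14 in transgenic libraries. Pooled within groups and scaled for depth, Krt16 was at least 6.49-fold higher at D60, taking 3 counts over the wild-type group as the floor. At D80 the ratio was 12.9, with a 95% counting interval of 4.17 to 64.6 that covers counting error only. The adjusted p was 0.014 at D80 and 0.082 at D60, and 0.052 at D80 without transgenic D80 replicate 2.

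Krt14, the type I chain of basal cells of stratified epithelia, had 3, 3 and 0 counts in wild-type D60 and 10, 8 and 10 in transgenic D60 libraries. At D80 it had 0, 3 and 6 counts in wild-type and 13, 51 and 18 in transgenic libraries. The pooled ratio was 3.78 at D60 (95% counting interval 1.54 to 11.2) and 6.92 at D80 (3.47 to 15.7), intervals that cover counting error only. Across libraries the D60 difference was not called (adjusted p = 0.46, edgeR). The D80 call had an adjusted p of 0.024, which became 0.13 without transgenic D80 replicate 2, 0.051 without wild-type D80 replicate 1, 0.068 without wild-type D80 replicate 2 and 0.061 in a fit on the D80 groups alone. That single transgenic replicate 2 also held 77 of the 117 counts of Krt5, the type II partner of Krt14, and 39 of the 51 counts of Krt6a, a partner of Krt16. It held 7 of the 8 counts of Krt6b. Neither Krt5, Krt6a nor Krt6b met the rule for expression. In the same library Trp63, the transcription factor of stratified basal cells, had 4 counts, beside 0 and 7 in the other transgenic D80 libraries, and the summed level of 12 basal squamous genes was 160.8 CPM, beside 214.9 and 166.6 CPM. Krt14, Krt16 and Krt17 are close paralogs, as are Krt6a and Krt6b, so the split of reads between them is uncertain.

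Krt17, another chain of wounded epidermis, had lower levels in transgenic libraries at both ages but missed the threshold. It measured 3.396, 4.004 and 3.808 CPM in wild-type D60 and 0.8947, 1.792 and 2.043 CPM in transgenic D60 libraries. At D80 it measured 3.739, 3.088 and 2.557 CPM in wild-type and 0.1502, 2.249 and 0.1859 CPM in transgenic libraries. The groups did not overlap at either age, and transgenic D80 replicate 2 was again the high one. The log2 change was -1.25 at D60 (SE 0.73, adjusted p = 0.49) and -1.89 at D80 (SE 0.75, adjusted p = 0.063). Without transgenic D80 replicate 2 the D80 change was -4.18 (adjusted p = 1e-04).

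**Figure D3:**
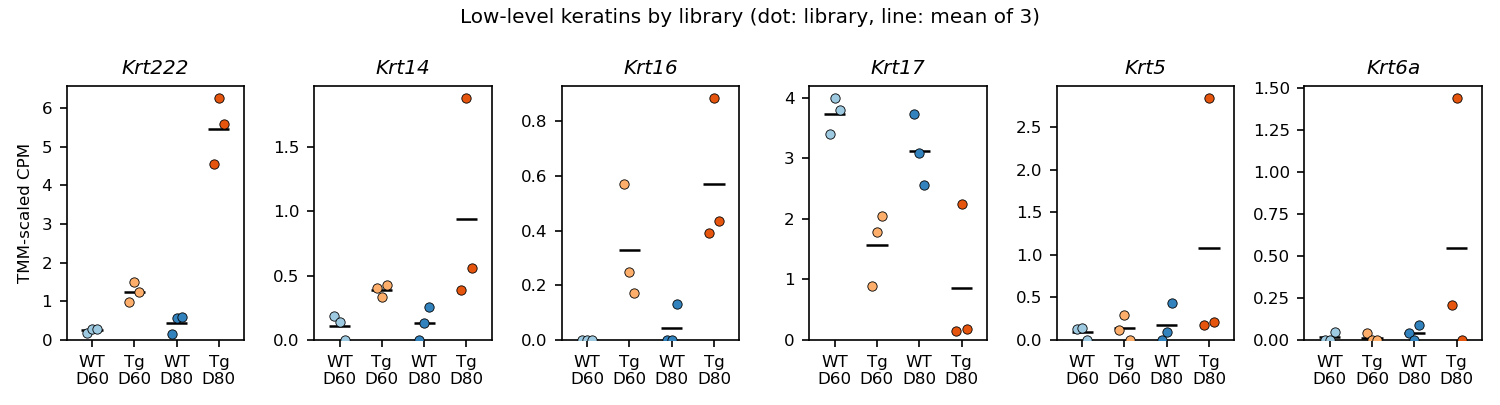
TMM-scaled CPM (linear axes from 0) of 6 low-level keratins, a dot per library and a line at the mean of each group of 3. Transgenic D80 replicate 2 is the highest library of all in Krt222, Krt14, Krt16, Krt5 and Krt6a, and in Krt17 it is the transgenic D80 library near the wild-type values.

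The remaining members of stratified and appendage epithelia were low and mostly uncalled. Krt10, the suprabasal type I chain of epidermis, measured 2.804, 2.912 and 2.34 CPM in wild-type D80 and 4.386, 3.946 and 3.781 CPM in transgenic D80 libraries. It rose by 0.59 on the log2 scale (SE 0.21, adjusted p = 0.044) without overlap, but the call was lost in 13 of 22 alternative settings, among them the fits that left out any 1 of the 6 D80 libraries (adjusted p 0.059 to 0.13) or wild-type D60 replicate 3, transgenic D60 replicate 1 or transgenic D60 replicate 3 (0.053 to 0.065). Over all 22 its adjusted p ran from 0.005 to 0.25. Its type II partner Krt1 averaged 0.6672 ± 0.128 CPM in wild-type and 0.565 ± 0.12 CPM in transgenic D80 libraries (SD, n = 3; adjusted p = 0.63, edgeR). Krt13, of oesophageal-type epithelium, measured 4.104, 9.529 and 4.637 CPM in wild-type and 6.699, 2.581 and 2.51 CPM in transgenic D80 libraries, which overlapped (adjusted p = 0.22, and 0.014 without transgenic D80 replicate 1). Krt4, the type II partner of Krt13, averaged 0.3009 ± 0.0847 CPM in wild-type and 0.745 ± 0.5 CPM in transgenic D80 libraries without overlap (SD, n = 3; adjusted p = 0.057, edgeR). In a fit without transgenic D80 replicate 3, its adjusted p was 0.039. Krt12, the corneal type I chain, measured 2.438, 3.971 and 5.157 CPM in wild-type and 3.484, 2.692 and 3.037 CPM in transgenic D80 libraries (adjusted p = 0.34). The hair keratin Krt83 and the basal-cell chain Krt15 averaged at most 1.161 CPM in any group and were not called at D80 (adjusted p = 0.57 and 0.62). Counting every member tested, 9 had all transgenic D80 values below the wild-type ones and 5 had all above, and over all genes those shares were 26.1% and 24.4%.

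Of the 52 members, 31 stayed below the rule for expression. Krt9, Krt24, Krt26, Krt33b, Krt34, Krt35, Krt39, Krt40, Krt72 and Krt82 had 0 counts in all 12 libraries, which allows at most 0.185 CPM in the library where 3 counts weigh most. A further 21 held between 1 and 117 counts over all 12 libraries. Among these Krt5 (117 counts), Krt36 (57) and Krt6a (51) held the most, and Krt33a and Krt77 held 10 each. Krt2, Krt6b, Krt27, Krt42 and Krt86 held 5 to 9 counts. The other 11, namely Krt25, Krt28, Krt31, Krt32, Krt71, Krt73, Krt74, Krt75, Krt76, Krt81 and Krt84, held 1 to 3 counts each. In GENCODE M21, 27 of the 51 members found there lay on chromosome 11 between 99232761 and 100269871 and 24 on chromosome 15 between 101347444 and 102032027. Of these, 11 were expressed on chromosome 11 and 9 on chromosome 15. The annotation lists Krt74 as a pseudogene. Krt7, Krt8, Krt10, Krt12 and Krt80 each overlap another annotated gene, as do Krt5, Krt6a, Krt6b, Krt32, Krt75 and Krt76 below the rule, and the strand setting of the counting is not given in the sources used here, so their counts may include reads of that gene.

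At D60 the keratins differed little by genotype. Krt222 was the single member called, with a log2 change of 2.26 (SE 0.45, adjusted p = 0.013), against 3.66% of all genes called higher. None was called lower (0.241% of all genes) in edgeR's test. Of the 20 members 2 had an unadjusted p under 0.05, and DESeq2 called 2 higher (Krt222, and Krt16 with adjusted p = 0.015) and 0 lower. Over all 15369 genes DESeq2 called 833 higher and 159 lower. The median log2 change over the 20 was 0.04, beside -0.004 over all genes. Krt8 measured 8967, 5646 and 5661 CPM in wild-type and 6892, 4975 and 5662 CPM in transgenic D60 libraries, which overlapped, with a log2 change of -0.21 (SE 0.30, adjusted p = 0.84). Krt19 measured 8961, 5333 and 5305 CPM in wild-type and 6213, 4804 and 5037 CPM in transgenic D60 libraries, with a log2 change of -0.29 (SE 0.30, adjusted p = 0.75). Wild-type D60 replicate 1 was the highest library of the series for both, as it was in surface mucous genes (212600 CPM). Krt18 (1378, 997.3 and 1113 CPM against 1145, 908.5 and 1037 CPM) and Krt7 (1405, 911.9 and 817.5 CPM against 956.2, 793 and 806 CPM) also overlapped. Without overlap were Krt13, Krt14, Krt16 and Krt222 upwards and Krt17 downwards, beside 12.2% and 7.84% of all genes.

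The Krt222 call at D60 did not hold in every fit. Its adjusted p was 0.065 without wild-type D60 replicate 1, 0.057 without wild-type D60 replicate 3 and 0.057 without transgenic D60 replicate 2. With sex as a covariate it was 0.68 with a log2 change of 1.88. Only the transgenic D80 group held both sexes, so the covariate rests on transgenic D80 replicate 1, its single male-type library. That library was also the highest in pancreatic acinar markers.

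**Figure D4:**
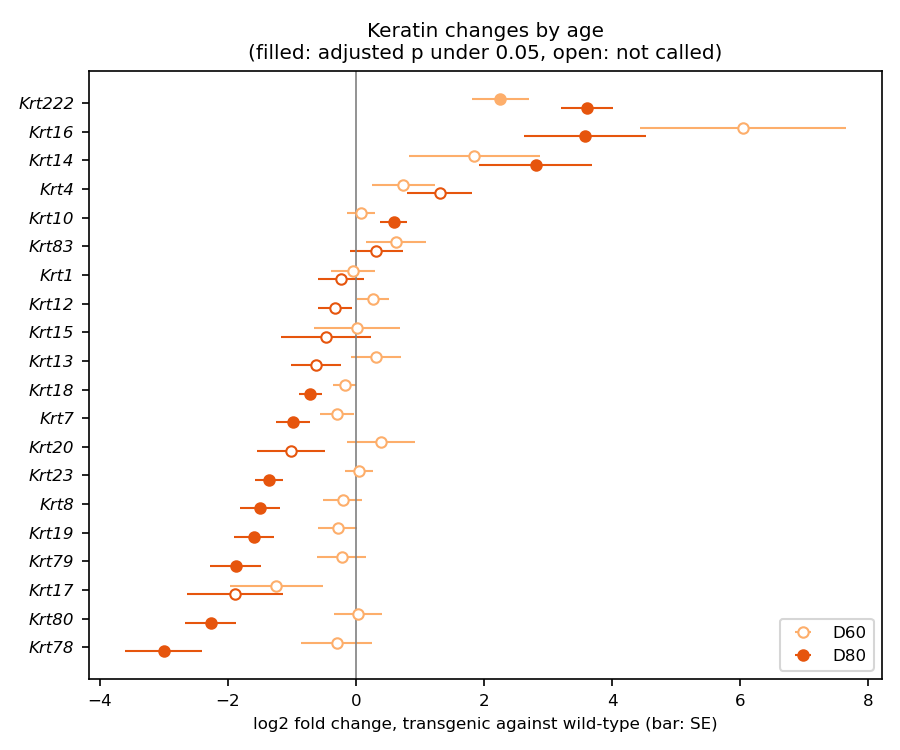
Log2 fold change of transgenic against wild-type pylorus (horizontal axis, bars show the standard error) for the 20 members tested, at D60 (light) and D80 (dark). Filled dots passed an adjusted p of 0.05, which Krt222 did at both ages and 11 further members at D80.

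Within the transgenic pylorus, the simple keratins other than Krt20 were lower at D80 than at D60. In transgenic libraries 10 of 20 members fell with age (Krt7, Krt8, Krt12, Krt13, Krt18, Krt19, Krt23, Krt78, Krt79 and Krt80) and Krt222 rose, against 18% of all genes called lower and 17.7% higher. The median log2 change was -1.06, beside 0.02 over all genes. With no composition factor 5154 genes were called higher and 1098 lower between the ages, where TMM scaling gave 2725 and 2765. All D80 values lay below all D60 values for 12 members and above them for 2, beside 28% and 30.6% of all genes. These values share the transgenic libraries with the genotype comparisons. Krt8 fell by 1.63 on the log2 scale (SE 0.31, adjusted p = 0.0025), from 5843 ± 971 to 1882 ± 507 CPM (SD, n = 3, edgeR). Krt23 fell by 1.55 (SE 0.22, adjusted p = 0.00056), from 172.1 ± 19.2 to 58.7 ± 8.27 CPM. Krt80 fell by 2.40 (SE 0.40, adjusted p = 0.0013), and its transgenic D60 values of 31.23, 27.63 and 34.01 CPM lay far above the 5.082 to 6.305 CPM of D80. Krt12 (7.036, 7.793 and 6.938 CPM at D60, adjusted p = 0.0043) and Krt13 (12.28, 13.21 and 11.54 CPM at D60, adjusted p = 0.0083) fell with age although neither was called by genotype. Krt20 was not called (log2 change -1.22, SE 0.53, adjusted p = 0.095), although all its D80 values lay below its D60 values. Krt7 and Krt78 had adjusted p of 0.051 and 0.052 without transgenic D80 replicate 3, and Krt18 had 0.079 with no composition factor.

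In wild-type libraries no member was called between the ages, and neither was any of the 15369 genes (0%) in edgeR's test. Wild-type D60 libraries were male-type and wild-type D80 libraries female-type. Age and sex therefore cannot be told apart in this comparison, and the interaction below uses the same libraries. Unadjusted p was under 0.05 for 3 members (Krt10, Krt12 and Krt83), and DESeq2 called 0 members, 164 genes higher and 90 lower. Without wild-type D80 replicate 1, edgeR called 376 genes higher, 20 lower and again 0 members. The 2 ages did not overlap for 3 members that were lower and 1 that was higher at D80, beside 4.55% and 7.06% of all genes. The difference between the genotype effects at D80 and D60 was tested as an interaction. It passed for Krt80 at -2.30 (SE 0.54, adjusted p = 0.035) and Krt23 at -1.41 (SE 0.30, adjusted p = 0.025), against 2.23% of all genes called lower. No member was called higher by edgeR (2.77% of all genes) or DESeq2 (960 of 15369 genes), and 7 members had an unadjusted p under 0.05 in either direction. Krt8 and Krt19 had interactions of -1.29 (SE 0.43, adjusted p = 0.10) and -1.31 (SE 0.43, adjusted p = 0.095), so that for them a difference between the ages was not established. The count of 2 was 7 without wild-type D80 replicate 1, where 1541 of 15611 genes were called lower, beside 343 of 15369 with all libraries. The count of members was 0 without wild-type D60 replicate 2 or 3, transgenic D60 replicate 3, wild-type D80 replicate 2 or 3, or transgenic D80 replicate 3, and 1 without transgenic D60 replicate 1 or 2. In the fits that gave 0, between 60 and 188 of all genes were called lower.

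Within a library, ratios between members do not depend on scaling. The log2 ratio of Krt8 to its partner Krt18 averaged 2.36 ± 0.56 in wild-type and 1.59 ± 0.17 in transgenic D80 libraries (SD, n = 3, exact two-sided permutation p = 0.2, 0.4 adjusted over 4 ratio comparisons). Wild-type D80 replicate 1 at 1.75 lay among the transgenic values of 1.76, 1.59 and 1.41. The log2 ratio of Krt7 to Krt19 averaged -2.63 ± 0.16 in wild-type and -1.96 ± 0.26 in transgenic D80 libraries, without overlap, and its exact permutation p of 0.1 is the smallest that 3 against 3 libraries can give (0.4 adjusted). At D60 the differences were -0.02 for Krt8 to Krt18 and -0.01 for Krt7 to Krt19 (exact permutation p = 0.8 and 0.9).

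Keratin filaments end at desmosomes, and the desmosome genes moved with the simple keratins at D80. Of 16 listed, 10 were tested and 9 fell (90%, beside 22% of all genes), with a median log2 change of -1.12. Perp, a desmosomal membrane protein, measured 217.9, 386.3 and 391 CPM in wild-type and 125.4, 110.5 and 102.9 CPM in transgenic D80 libraries and fell by 1.55 (SE 0.26, adjusted p = 0.00074). Desmoplakin (Dsp), which ties the filaments to the junction, measured 336.9, 671.3 and 710.9 CPM in wild-type and 295, 192.8 and 170.4 CPM in transgenic libraries (log2 change -1.39, SE 0.31, adjusted p = 0.0045). Jup fell by 1.14 (SE 0.19, adjusted p = 9e-04) and Pkp4 by 0.78 (SE 0.13, adjusted p = 0.00096). Pkp1, the plakophilin of stratified epithelia, was the exception and rose by 1.19 (SE 0.28, adjusted p = 0.0064). At D60 0 of the 10 were called by edgeR or DESeq2, and 0 had an unadjusted p under 0.05.

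Cytolinkers and hemidesmosome parts, which anchor keratin to other structures and to the basement membrane, fell in 7 of 13 tested at D80 (53.8%, beside 22% of all genes, median -0.56). Evpl fell by 1.65 (SE 0.33, adjusted p = 0.0024), Plec by 1.04 (SE 0.21, adjusted p = 0.003) and Cd151 by 0.56 (SE 0.14, adjusted p = 0.0068). That count was 3 with no composition factor or without transgenic D80 replicate 3, and 4 on the D80 groups alone, without wild-type D80 replicate 2 or without transgenic D80 replicate 2.

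Squamous genes split at D80. Among 10 tested genes of the cornified envelope and suprabasal layers, Dmkn, Ivl, Lor and Tgm1 rose and Lypd3, Rptn, Sprr1a and Sfn fell (median -0.04). That is 40% each way, beside 19.4% and 22% of all genes. Involucrin (Ivl), a cornified envelope protein, measured 0.6908, 0.8382 and 0.7367 CPM in wild-type and 3.184, 3.134 and 2.789 CPM in transgenic D80 libraries and rose by 2.0 (SE 0.32, adjusted p = 0.00063). Dmkn rose by 1.65 (SE 0.25, adjusted p = 4e-04), whereas Lypd3 fell by 3.06 (SE 0.70, adjusted p = 0.005). Lypd3 measured 0.894, 11.29 and 9.057 CPM in wild-type and 1.081, 0.9587 and 0.4958 CPM in transgenic D80 libraries, which overlapped through wild-type D80 replicate 1, and Rptn and Sprr1a overlapped as well. The 4 falls became 2 on the D80 groups alone or without wild-type D80 replicate 2, transgenic D80 replicate 2 or transgenic D80 replicate 3. Of 5 basal squamous genes tested, 3 fell, Serpinb5 and Ovol1 among them (median -0.98), which is 60% beside 22% of all genes, and all 5 did without wild-type D80 replicate 1. Tfap2c had 0 counts in every library and Trp63 had 0 to 7.

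Other intermediate filament genes moved both ways. Of 14 tested at D80, Ina, Nefl, Nefm and Nefh rose and Des, Synm, Prph and Lmna fell (median 0.21), so that neuronal filament genes were among both. The 4 rises and 4 falls are 28.6% each, beside 19.4% and 22% of all genes. Ina measured 0.6502, 0.7059 and 0.78 CPM in wild-type and 16.34, 24.12 and 14.53 CPM in transgenic D80 libraries (log2 change 4.68, SE 0.29, adjusted p = 7.6e-07). Desmin (Des), the filament of muscle, fell by 2.92 (SE 0.32, adjusted p = 3.6e-05) and Synm by 3.34 (SE 0.31, adjusted p = 1.2e-05). Vim, the filament of mesenchymal cells, averaged 170.4 ± 29.1 CPM in wild-type and 195.8 ± 25.9 CPM in transgenic D80 libraries (SD, n = 3; adjusted p = 0.59, edgeR).

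General epithelial genes were lower in part. Of 16 tested, 10 fell at D80 (62.5%, beside 22% of all genes, median -0.74), and with no composition factor 6 did. Rab25 fell by 0.93 (SE 0.14, adjusted p = 0.00039), Grhl2 by 0.94 (SE 0.16, adjusted p = 0.0011), Prss8 by 0.90 (SE 0.16, adjusted p = 0.0011) and E-cadherin (Cdh1) by 1.02 (SE 0.22, adjusted p = 0.0038). Epcam, a membrane protein of simple epithelia, measured 594.6, 623.9 and 652.9 CPM in wild-type and 617.3, 566.4 and 615.4 CPM in transgenic D80 libraries, with a log2 change of -0.06 (SE 0.14, adjusted p = 0.77).

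Markers of other cell types differed in direction at D80, and the surface mucous genes fell as most simple keratins did. All 8 surface mucous genes fell (median -2.17), led by the mucin Muc5ac at -4.58 (SE 0.49, adjusted p = 3.5e-05), and no marker of that list was at 0. Their summed level was 61200 to 158400 CPM in wild-type and 19510 to 34960 CPM in transgenic D80 libraries. At D60 it was 119500 to 212600 CPM and 117000 to 148400 CPM, and 0 of 8 were called by edgeR, with 0 at an unadjusted p under 0.05. Of 11 pancreatic acinar genes tested, 5 rose at D80, with sums of 1.676 to 315.1 CPM in wild-type and 750.2 to 4306 CPM in transgenic libraries. Among 7 mesothelial genes 1 (Nkain4) fell, and Msln had an adjusted p of 0.29. Of 10 duodenal genes 0 were called by edgeR, and 1 had an unadjusted p under 0.05. Both tested genes of the hair and skin appendage list, Tchh and S100a3, fell, and that list summed to 1.217 to 3.779 CPM over all 12 libraries. With both libraries richest in pancreatic markers within their D80 group left out, 8 members fell and 3 rose. In that fit 2446 of 15534 genes were called lower and 2660 higher. The part of the mucous and other markers in the keratin result was not tested.

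**Figure D5:**
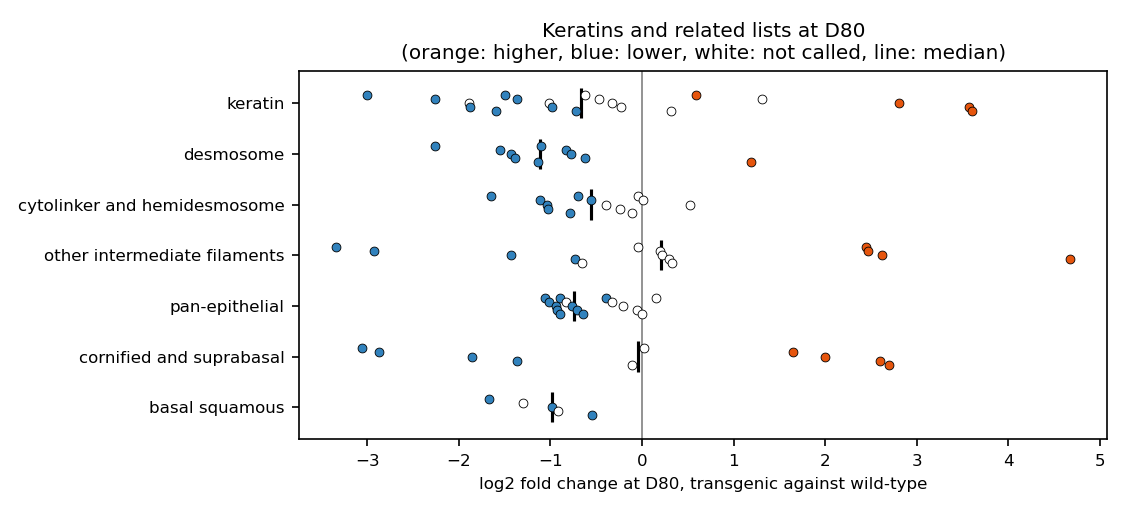
Log2 fold change of transgenic against wild-type pylorus at D80 (horizontal axis) for each tested gene of 7 lists, with orange for genes called higher, blue for genes called lower, white for genes not called and a line at the median. The keratins spread from -3.00 to 3.61, and 9 of 10 desmosome genes lie on the lower side.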

How the data were processed

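Total RNA of 12 bulk mouse pylorus samples was made into libraries with a stranded messenger RNA kit, per the labels' protocols. Per the submitters' processing notes the mm10 build was used with STAR 2.5.3a, with HTSeq 0.9.1 and with edgeR 3.16.5, whose roles the notes leave out. The sources used here give neither the annotation nor the strand setting. Of these samples the authors deposited raw counts per gene symbol, and these counts were the only values analysed. A second deposited table of normalised values was not used here.

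Genes were filtered with filterByExpr, scaled by TMM and fitted with 1 coefficient per group in edgeR 4.0.16 (R 4.3.3, limma 3.58.1). Its quasi-likelihood p-values were adjusted across the 15369 tested genes (Benjamini-Hochberg), a gene being called at an adjusted p under 0.05, and SE was taken from the log2 change and the F statistic. The biological coefficient of variation was 24.2%, and the script was tested on simulated counts. DESeq2 1.42.0, other scalings and filters, a replicate block, sex as a covariate and each library left out were alternatives. CPM used TMM-scaled library sizes, lengths came from the longest principal transcript in GENCODE M21 (GRCm38), and 51 of 52 members matched. Ratios were compared with exact permutation tests.

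Every member was named, with values per library for those called or averaging at least 5 CPM in a group. From each related list up to 3 tested genes with the smallest p at D80 were named, plus a fixed few (Epcam, Cdh1, Trp63, Dsp, Plec, Vim, Des, Msln, Muc5ac and Chga), and others were named after their values were seen. Members and lists were chosen with earlier results of these data known. Replicates of a group differed by far more than sampling noise (lowest chi-square per degree of freedom 23.2), so none was counted as a duplicate.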

Additional observations from a re-analysis of the deposited data

Results flagged for a closer look

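The effect of genotype differed between the ages for 2 keratins by a test of the difference itself, the interaction term in edgeR's quasi-likelihood fit. For Krt23 the log2 change in transgenic against wild-type pylorus was -1.36 at D80 and 0.05 at D60, a difference of -1.41 (SE 0.30, adjusted p = 0.025). For Krt80 it was -2.27 at D80 and 0.04 at D60, a difference of -2.30 (SE 0.54, adjusted p = 0.035). Wild-type D60 libraries were male-type and transgenic D60 libraries female-type, and with sex as a covariate the adjusted p was 0.36 for Krt23 and 0.25 for Krt80. That covariate rests on transgenic D80 replicate 1, the single male-type library in the only group with both sexes. The part of sex was not tested further. Over all settings the difference ran from -1.63 to -1.08 for Krt23 and from -2.72 to -1.97 for Krt80. The Krt23 call was lost in 8 of 21 settings and the Krt80 call in 12 of 21.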

How the results depend on the processing

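At D80, Krt8, Krt19, Krt23, Krt78, Krt79, Krt80 and Krt222 were called in the same direction in all 22 alternatives run. Direction reversed, with no call on either side, for Krt1 (0.18) and Krt12 (0.12) at D80 with no composition factor and for Krt15 at D80 without wild-type D80 replicate 2 (0.13, where leaving out 1 library gave -1.01 to 0.13). At D60 it reversed with sex as a covariate for Krt8 (0.39), Krt18 (0.18) and Krt19 (0.35), and for Krt8 without wild-type D60 replicate 1 (0.039, where leaving out 1 library gave -0.35 to 0.039). The sex covariate was estimated within the transgenic D80 group alone, where replicate 1 was the single male-type library. Members called higher at D60 numbered 2 with DESeq2, 0 with sex as a covariate and 0 to 1 with 1 library left out. Over all genes those fits called 833, 85 and 364 to 669 higher. Those called higher at D80 numbered 2 with at least 1 CPM in 3 libraries, 2 on the D80 groups alone and 1 to 4 with 1 library left out. Members higher with age in transgenic tissue numbered 2 with no filter on low counts. The interaction called 6 members lower with DESeq2, 0 with sex as a covariate, 0 without both libraries richest in pancreatic markers, a setting chosen after seeing the data, and 0 to 7 with 1 library left out. In those fits, in the same order, it called 785, 22, 223 and 60 to 1541 of all genes lower. With the replicate block it called 1. The block changed no other count of keratin calls by over 1.5 times. Replicate numbers did not pair the libraries, since only 7 of 18 same-number pairs correlated above 0.1 (mean -0.01) and 4 of 12 libraries correlated best with their own number. With 1 library left out, members called lower numbered 6 to 9 at D80 and 8 to 11 with age in transgenic tissue. The D80 log2 ratio difference ran from -1.08 to -0.52 for Krt8 to Krt18 and from 0.58 to 0.82 for Krt7 to Krt19, and at D60 from -0.10 to 0.07 and from -0.04 to 0.04. With no composition factor the median of all genes moved to 0.34 at D80, 0.39 with age in transgenic tissue and 0.10 at D60. Over all genes the interaction called 425 higher and 343 lower with TMM, 520 and 136 with no composition factor, and 477 and 252 with upper-quartile factors. The expression rule gave 23 members at 5 counts and 18 at 20 counts, beside 21. Depth limited the members of few counts, for which 3 counts were worth 0.0901 to 0.185 CPM. The cause of these shifts was not tested.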
